A study of Mus musculus with 4 samples.

Results

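The 10 genes described here mark intestinal crypts or direct intestinal epithelial identity. Olfm4, Lgr5, Ascl2, Sox9 and Slc12a2 are 5 markers of the crypt base, and Cdx1, Cdx2, Hnf4a, Elf3 and Klf5 are 5 transcription factors of the epithelial lineage. They were chosen by name, as all probe sets whose symbol in the platform's probe-to-gene table is one of these genes, and they are 10 of the 18193 genes that the table names on the array. All 10 are represented, by 23 probe sets in all, and the gene identifiers of all 10 were found in the gene table of GRCm38.p6.

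RNA came from IgA+ cells isolated from the small intestine of untreated female Balb/c mice aged 9 weeks, labelled WT (wild type) in all 4 samples. The first fraction was CD11b+ IgA+, with 2 arrays, and the second was CD11b- IgA+, also with 2 arrays. Replicate 1 of each fraction started from 1 µg of total RNA and was labelled with a One-Cycle kit. Replicate 2 of each started from 0.1 µg and was labelled with a 3' IVT Express kit, so each kit holds 1 array of each fraction. The labels do not say how many mice were pooled, how the sort was gated or whether arrays stem from separate animals, so a p-value here measures only the spread between 4 arrays, which may be technical.

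Crypts are the pits between the villi in which epithelial stem cells divide, and Wnt signals from the crypt surroundings keep those cells in place. Lgr5 is the R-spondin receptor that marks the stem cells, Ascl2 is the Wnt-responsive factor that sets their state, and Olfm4 is a secreted glycoprotein made abundantly by crypt base cells. Cdx1 and Cdx2 are homeobox factors that specify intestine, Hnf4a is a nuclear receptor that drives enterocyte genes, and Elf3 and Klf5 are epithelial ETS and zinc finger factors. Slc12a2, Sox9 and Klf5 are also expressed outside the epithelium.

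Upstream sequence is shown for the genes with a start-site entry in RefSeq (build GRCm38.p6) that were lower in the CD11b+ array of both kits and held a match, since binding sites for factors among the 10 could lie there. Entries were found for 5 of the 10 genes, and Olfm4, Cdx2, Hnf4a and Elf3 were searched. The 250 bases before each annotated start were searched on both strands for TTTAT (the core bound by CDX factors), CAAAG (the core of sites bound by HNF4 factors), GGGCGG (a GC box bound by KLF and SP factors) and CGGAAG (an ETS site). These letters occur in 37.3%, 48.6%, 32.7% and 13.6% of 32851 upstream windows of that length, in the order given. The sequences run 5′ to 3′ on the gene's strand, with matches in capitals.
Olfm4, chr14:80000052-80000301, + strand: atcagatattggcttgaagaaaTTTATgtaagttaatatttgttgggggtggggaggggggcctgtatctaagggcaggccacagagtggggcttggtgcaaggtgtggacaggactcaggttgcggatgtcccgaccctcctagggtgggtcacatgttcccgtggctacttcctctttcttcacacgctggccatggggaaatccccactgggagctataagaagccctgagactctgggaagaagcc
Hnf4a, chr2:163506607-163506856, + strand: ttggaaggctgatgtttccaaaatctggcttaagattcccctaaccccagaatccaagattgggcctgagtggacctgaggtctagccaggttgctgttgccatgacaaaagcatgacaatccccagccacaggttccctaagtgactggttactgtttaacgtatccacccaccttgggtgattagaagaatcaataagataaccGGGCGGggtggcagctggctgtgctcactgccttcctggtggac
Elf3, chr1:135258473-135258722, - strand: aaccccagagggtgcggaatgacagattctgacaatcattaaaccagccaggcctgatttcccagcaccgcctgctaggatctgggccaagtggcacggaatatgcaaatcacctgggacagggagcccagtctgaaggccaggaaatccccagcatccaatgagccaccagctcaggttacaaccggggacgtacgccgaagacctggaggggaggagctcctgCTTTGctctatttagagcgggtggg
The Olfm4 window held 1 TTTAT, with its first base 228 bases before the start. The window before the more upstream Hnf4a start held 1 GGGCGG, at 44 bases, and the Elf3 window held 1 CAAAG on the opposite strand, at 25 bases. The gene table places the beginning of Hnf4a at base 163506811. The end of that Hnf4a window, with its match, therefore lies inside the annotated gene. None of the 3 matches overlapped another motif. The Cdx2 window and that of the other Hnf4a start held 0 of the 4 motifs. A match describes letters in a window and does not show binding.

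Each value below is a MAS5 signal, the brightness that the array software gives a probe set, after quantile normalization of the 4 arrays. Differences are of log2(signal + 3), CD11b+ minus CD11b-, so folds understate differences of weak genes. A probe set passed the low-signal filter when its mean lay above the 40th percentile of all probe sets, a signal of about 9.51, and the brightest such probe set stood for its gene. Of the 10 genes 8 passed, 7 of them with CD11b+ means that were themselves above that signal, and Ascl2 and Cdx1 did not. Levels of different genes are not compared, because probe sets differ in brightness.

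The crypt markers and lineage factors above the filter had lower signals in the CD11b+ fraction. Lgr5 is set apart here, because it passed the filter through its CD11b- signals and so had to differ. The 7 other genes were all lower in the CD11b+ array of both kits, where 30.5% of the 12645 genes tested were lower and 31.6% higher. All 7 had both CD11b+ arrays below both CD11b- arrays, as did 17.3% of the genes tested. Their median log2 difference was -1.16 (range -1.69 to -0.81), beside 0.0027 for all genes tested. Within the One-Cycle kit the median was -1.09 and within the 3' IVT Express kit -1.37. With Lgr5 the counts were 8 of 8 and the median -1.15. With limma across all genes, 0 of the 8 passed at an adjusted p under 0.05, as did 0% of all genes in either direction. At an unadjusted limma p under 0.05, 6 of the 8 passed, all lower, as did 445 of all genes lower (3.52%) and 397 higher (3.14%). Blocking on the labelling kit, limma called 5 of the 8 lower and 0 higher (Olfm4, Slc12a2, Hnf4a, Elf3 and Klf5), against 4.14% of all genes lower and 3.73% higher. Lgr5, Sox9 and Cdx2 were not called. Every gene kept a negative difference on leaving out any 1 of the 4 arrays. That follows from the lack of overlap between fractions and adds nothing to it. In bulk RNA, fewer epithelial cells in a fraction and less of these transcripts per cell cannot be told apart.

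**Figure D1:**
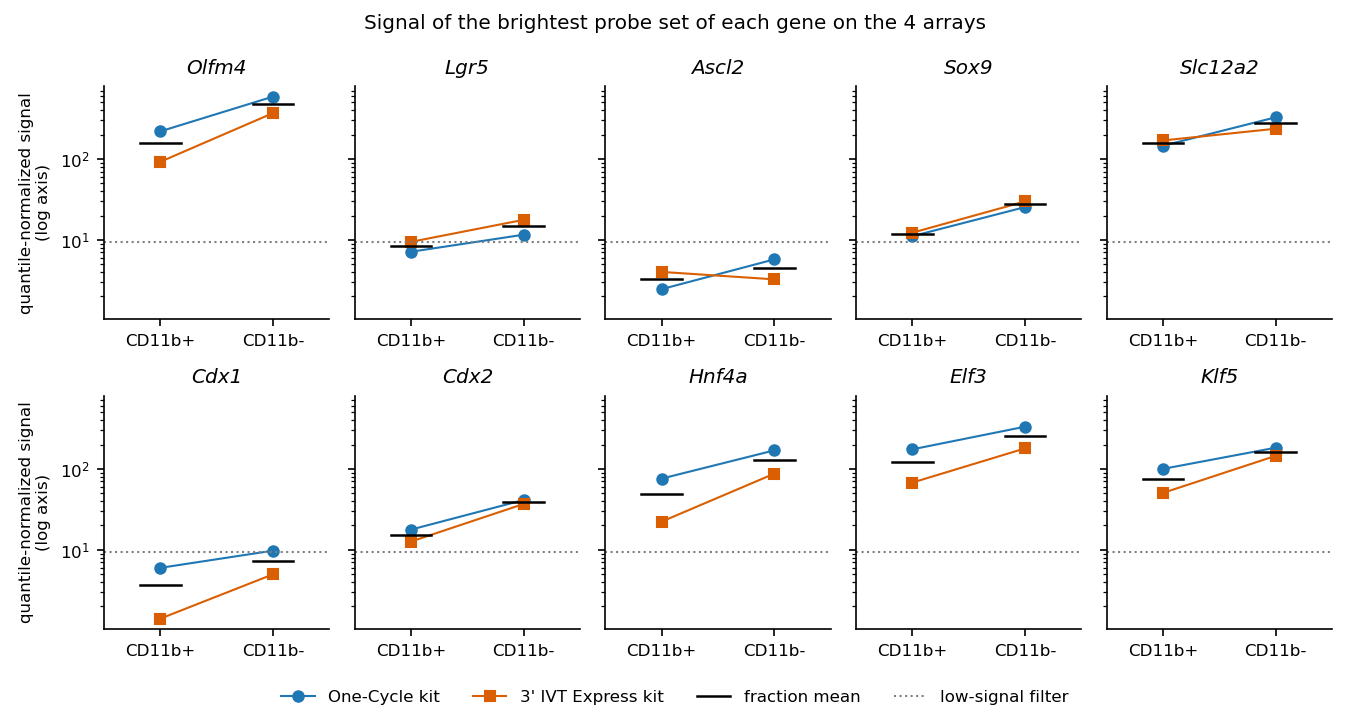
Quantile-normalized signal (log axis) of the brightest probe set of each of the 10 genes in the CD11b+ and CD11b- arrays, with lines joining arrays of the same labelling kit, black bars for fraction means (n = 2 arrays each) and a dotted line at a signal of 9.51, the low-signal filter. For 8 genes both CD11b+ points lie below both CD11b- points; Ascl2 and Cdx1 did not pass the filter.

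Olfm4 had the largest difference of the 8 genes over all 4 arrays. Without CD11b-positive replicate 1 that of Hnf4a equalled it at -2.30, and without CD11b-positive replicate 2 that of Sox9 was larger, at -1.11. The single Olfm4 probe set had signals of 219 and 92.3 in the CD11b+ arrays, against 590 and 369 in the CD11b- arrays, replicate 1 before replicate 2. Both CD11b+ arrays lay below both CD11b- arrays, and the array of the 3' IVT Express kit was the lower in each fraction. The mean was 156 ± 89.9 in CD11b+ and 479 ± 156 in CD11b- arrays (SD, n = 2 each), and the level on the log2 scale was 3.23-fold lower in CD11b+ cells. The log2 difference was -1.69 ± 0.43 (SE; limma adjusted p = 0.577, and 1.8e-08 with the block), with -1.41 in the One-Cycle and -1.97 in the 3' IVT Express kit. It was -1.08 without CD11b-positive replicate 2, and -2.30 without CD11b-positive replicate 1, where limma called it (adjusted p = 0.00901).

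Slc12a2, the sodium, potassium and chloride cotransporter that loads crypt cells with chloride for secretion, had signals of 146 and 169 in the CD11b+ arrays, against 327 and 236 in the CD11b- arrays. The fractions did not overlap, but the kits differed more than for the other crypt markers, with -1.15 in the One-Cycle and -0.47 in the 3' IVT Express kit. The mean was 158 ± 16.7 in CD11b+ and 282 ± 64.1 in CD11b- arrays (SD, n = 2 each). The difference was 1.76-fold, at -0.81 ± 0.24 log2 (SE; limma adjusted p = 0.611, and 0.00153 with the block). A pair of further Slc12a2 probe sets above the filter gave smaller differences of -0.43 and -0.46. One of them had 43.1 and 48.4 in the CD11b+ arrays, against 58.4 and 67 in the CD11b- arrays. The other had 31.2 and 39.5 in the CD11b+ arrays, against 46.5 and 52.8 in the CD11b- arrays. All 3 probe sets were lower in both kits, and the mean over them was -0.57.

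Sox9, the SRY-box factor that is needed for Paneth cells and is expressed through the crypt base, had signals of 11.1 and 12.3 in the CD11b+ arrays, against 25.4 and 29.9 in the CD11b- arrays. Arrays of a fraction lay close together and the fractions apart, with within-kit differences of -1.01 and -1.11. The mean was 11.7 ± 0.812 in CD11b+ and 27.6 ± 3.13 in CD11b- arrays (SD, n = 2 each). The 2.08-fold difference, -1.06 ± 0.39 log2 (SE), had a limma adjusted p of 0.694, and of 0.177 with the block. A pair of weaker Sox9 probe sets lay below the filter and went in opposite directions, with means over both kits of 1.28 and -0.72. The one that was higher in CD11b+ cells had 6.44 and 12 in the CD11b+ arrays, against 2.86 and 1.09 in the CD11b- arrays.

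Lgr5 was near the filter. The probe set that passed had signals of 7.14 and 9.46 in the CD11b+ arrays, against 11.6 and 17.7 in the CD11b- arrays, so it passed through its CD11b- values and no fold is given. Its log2 difference was -0.63 ± 0.49 (SE; limma adjusted p = 0.900, and 0.631 with the block), with -0.53 and -0.73 in the kits. It was -0.38 without CD11b-negative replicate 2 and -0.39 with a pseudocount of 12. The other Lgr5 probe set did not pass the filter and had 1.41 and 21.9 in the CD11b+ arrays, against 5.85 and 8.72 in the CD11b- arrays. Its CD11b+ arrays lay on either side of both CD11b- arrays, with -1.0 in the One-Cycle and 1.09 in the 3' IVT Express kit. Ascl2 had 3 probe sets, all below the filter. The brightest had 2.46 and 4.02 in the CD11b+ arrays, against 5.75 and 3.26 in the CD11b- arrays, and the fractions overlapped. Of the stem cell markers, Lgr5 thus lay at the filter and Ascl2 below it.

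**Figure D2:**
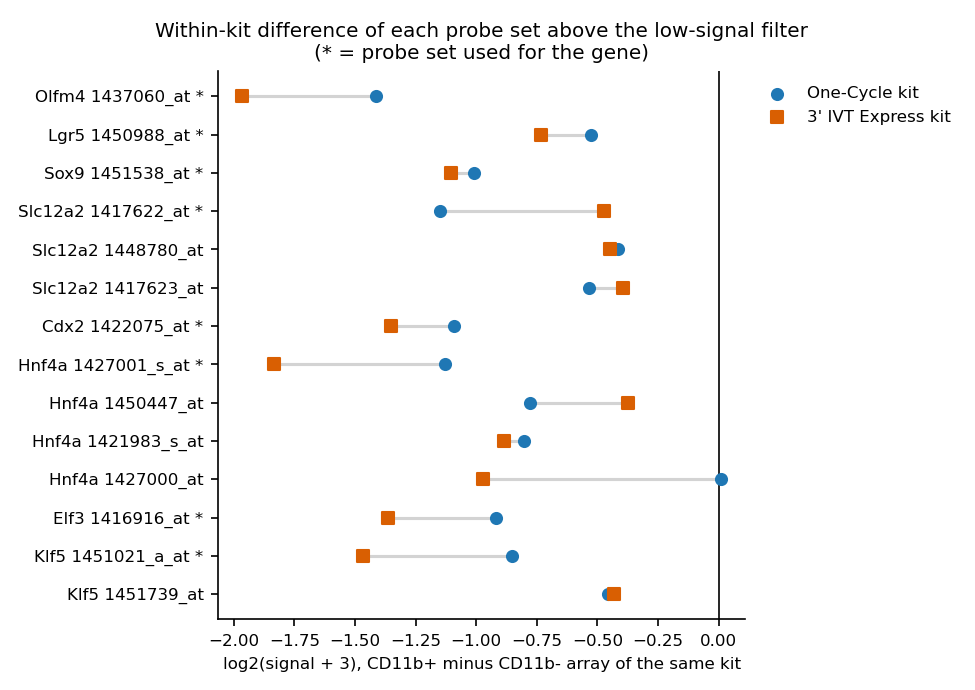
Difference of log2(signal + 3), CD11b+ minus CD11b- array, within the One-Cycle kit (circles) and the 3' IVT Express kit (squares), for the 14 probe sets above the low-signal filter, with an asterisk at the probe set used for its gene. In 13 of the 14 both points lie left of 0; 1 Hnf4a probe set is at 0.0098 in the One-Cycle kit.

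The 4 lineage factors above the filter had a median log2 difference of -1.19. Hnf4a had signals of 75.8 and 22.3 in the CD11b+ arrays, against 169 and 87.3 in the CD11b- arrays. The fractions did not overlap, although the higher CD11b+ array and the lower CD11b- array were close. The mean was 49.1 ± 37.8 in CD11b+ and 128 ± 58 in CD11b- arrays (SD, n = 2 each). The difference was 2.79-fold, at -1.48 ± 0.58 log2 (SE; limma adjusted p = 0.728, and 0.00012 with the block), with -1.13 and -1.84 in the kits. It was -0.66 without CD11b-positive replicate 2 and -2.30 without CD11b-positive replicate 1, where limma called it (adjusted p = 0.0489). The name of this probe set marks possible cross-hybridisation, and without such probe sets Hnf4a was at -0.58. The 3 other Hnf4a probe sets above the filter were at -0.58, -0.84 and -0.48, and the mean over all 4 was -0.85. The last of these 3 had 28.1 and 11.6 in the CD11b+ arrays, against 27.8 and 25.6 in the CD11b- arrays, so that its One-Cycle arrays hardly differed.

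Cdx2 had signals of 17.8 and 12.6 in the CD11b+ arrays, against 41.3 and 36.9 in the CD11b- arrays. Both kits showed a like difference, -1.09 and -1.35, and the fractions did not overlap. The mean was 15.2 ± 3.62 in CD11b+ and 39.1 ± 3.10 in CD11b- arrays (SD, n = 2 each). The 2.33-fold difference, -1.22 ± 0.36 log2 (SE), had a limma adjusted p of 0.610, and of 0.0519 with the block. A second Cdx2 probe set, below the filter, had 6.0 and 2.62 in the CD11b+ arrays, against 1.33 and 0.772 in the CD11b- arrays, the opposite direction at very weak signals. Its paralog Cdx1 has 1 probe set, below the filter, with 5.99 and 1.41 in the CD11b+ arrays, against 9.76 and 4.98 in the CD11b- arrays. Its fractions overlapped, and it is given without a fold.

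Elf3 had signals of 174 and 67.7 in the CD11b+ arrays, against 332 and 179 in the CD11b- arrays. CD11b-positive replicate 1 was only just below CD11b-negative replicate 2, and the 3' IVT Express array was the lower in both fractions. The mean was 121 ± 75.4 in CD11b+ and 256 ± 108 in CD11b- arrays (SD, n = 2 each). The 2.21-fold difference was -1.14 ± 0.49 log2 (SE; limma adjusted p = 0.757, and 3.69e-05 with the block), with -0.92 and -1.37 in the kits. Without CD11b-positive replicate 1 it was -1.81, and with CD11b-positive replicate 2 left out it was -0.48. Omitting CD11b-negative replicate 1 gave -0.70.

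Klf5, a factor of dividing crypt cells, had signals of 99.97 and 50.4 in the CD11b+ arrays, against 183 and 145 in the CD11b- arrays. The fractions did not overlap, and CD11b-positive replicate 2 was the lowest array, as it was for Olfm4, Cdx2, Hnf4a and Elf3. The mean was 75.2 ± 35.02 in CD11b+ and 164 ± 26.7 in CD11b- arrays (SD, n = 2 each). The difference was 2.23-fold, at -1.16 ± 0.36 log2 (SE; limma adjusted p = 0.614, and 0.000282 with the block), with -0.85 and -1.47 in the kits. It was -0.69 without CD11b-positive replicate 2. A second Klf5 probe set above the filter was at -0.44, with 41.8 and 22.5 in the CD11b+ arrays, against 58.6 and 31.4 in the CD11b- arrays. Its fractions overlapped, while each kit showed the lower value in CD11b+ cells.

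**Figure D3:**
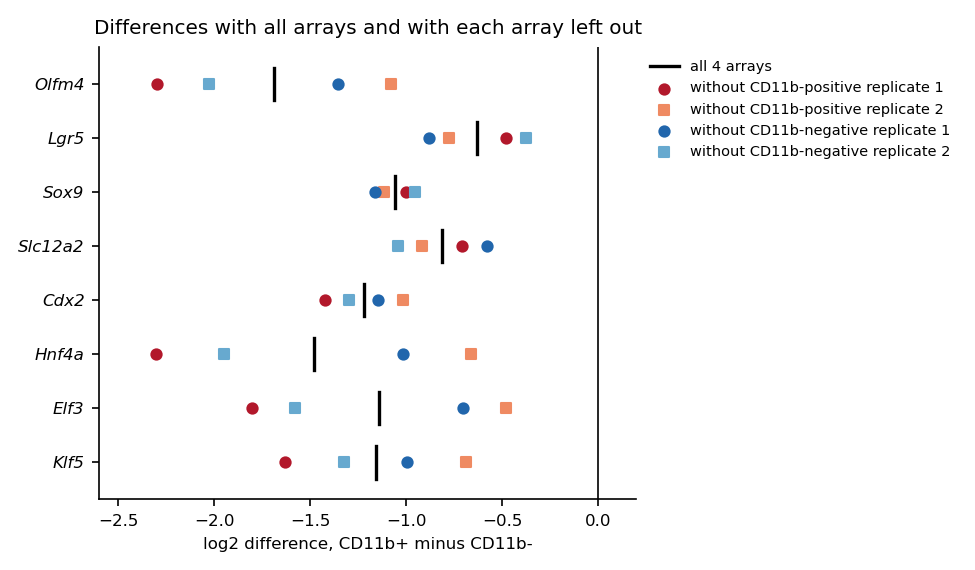
Log2 difference, CD11b+ minus CD11b-, of the 8 genes above the filter with all 4 arrays (black bar) and with each array left out (points). All points lie left of 0, as they must where the fractions do not overlap. The points with CD11b-positive replicate 1 or 2 left out lie at -2.30 and -0.66 for Hnf4a and at -1.81 and -0.48 for Elf3.

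The 8 genes kept their direction without rescaling the arrays. The signals as deposited had 2% trimmed means of 73.8 and 90.3 in the CD11b+ arrays, against 48.6 and 70.05 in the CD11b- arrays, and the median of all genes lay 0.42 log2 higher in the CD11b+ fraction. On those signals, with no shift removed, all 8 genes were still lower in the CD11b+ array of both kits, with differences of -0.70 to -0.21 in the One-Cycle and -1.71 to -0.12 in the 3' IVT Express kit. The fractions did not overlap for 6 of the 8. The shares of all genes given above are for normalized signals, and those for the signals as deposited are not given here. Of the 6 further probe sets above the filter, 3 were then higher in the CD11b+ array of the One-Cycle kit, by 0.07 for Slc12a2, 0.03 for Klf5 and 0.36 for Hnf4a.

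Further genes of these functions were counted in the same way. Of 18 further crypt base and Wnt target genes, 17 are on the array and 15 were tested. Their median was -0.08, with 7 lower and 3 higher in both kits (30.5% and 31.6% of all genes), and with the block limma called 1 lower and 1 higher (4.14% and 3.73% of all genes). With 15 genes tested, 1 call in each direction lies near those shares. Lgr4, the R-spondin receptor related to Lgr5 and expressed more widely, was the lower (16 and 40.4 in the CD11b+ arrays, against 47.8 and 64.2 in the CD11b- arrays, log2 difference -1.02, adjusted p = 0.0486 with the block in limma). Hopx, a homeodomain-only protein of slowly cycling crypt cells that lymphocytes also express, was the higher (291 and 286 in the CD11b+ arrays, against 196 and 215 in the CD11b- arrays, log2 difference 0.49, adjusted p = 0.0345 with the block in limma). Prom1, a membrane glycoprotein of crypt cells, was at -0.78 with arrays that did not overlap, and Cdca7, a Myc-responsive gene, at 1.05 with kits at 0.37 and 1.73; neither was called. Cdca7 passed the filter through its CD11b+ signals, with 22.3 and 13.6 in the CD11b+ arrays, against 16.5 and 2.01 in the CD11b- arrays, so no fold is given. Axin2, the Wnt feedback inhibitor, was at -0.27, and Smoc2, a secreted matrix protein, at -0.20.

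Of 25 further epithelial transcription factors, 23 are on the array and 15 were tested. Their median was -0.29, with 8 lower and 1 higher in both kits (30.5% and 31.6% of all genes). With the block limma called 4 lower and 0 higher, beside 4.14% and 3.73% of all genes. Hes1, the Notch target that favours absorptive fate, had 58.7 and 82.7 in the CD11b+ arrays, against 119 and 251 in the CD11b- arrays (log2 difference -1.27, adjusted p = 7.71e-05 with the block in limma). Sox4, a factor of progenitor cells, was at -1.61 (0.0112 with the block), Gfi1, a repressor used in secretory cells, at -0.61 (0.00334) and Grhl2, a regulator of epithelial junction genes, at -0.84 (0.00258). The Grhl2 arrays overlapped between fractions, with kits at -1.41 and -0.28. Hes1, Sox4 and Gfi1 are also used in lymphocytes. Isx, an intestine-specific homeobox factor, had 11.6 and 4.44 in the CD11b+ arrays, against 25 and 20.6 in the CD11b- arrays, and was not called. It passed the filter through its CD11b- signals. The factors Hnf4g, Spdef, Foxa2, Foxa3, Tcf7l2, Onecut2, Pdx1 and Prox1 did not pass the filter.

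**Figure D4:**
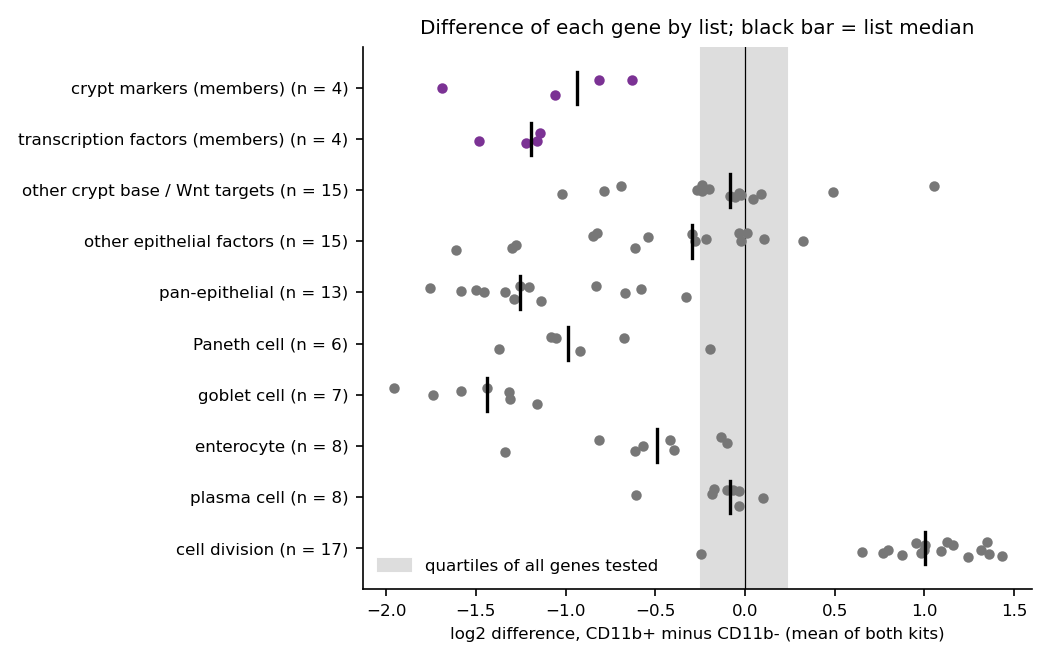
Log2 difference, CD11b+ minus CD11b-, of each tested gene (points) by list, with the list median (black bar) and the quartiles of all 12645 genes (grey band, -0.24 to 0.23). The medians are -0.94 for the crypt markers (Lgr5 included) and -1.19 for the transcription factors described here, -0.08 and -0.29 for the further genes of these functions, -1.25 for pan-epithelial markers and 1.00 for cell division genes.

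Markers of the whole epithelium were lower in the same arrays. All 13 pan-epithelial markers were lower in both kits and did not overlap between fractions, beside 30.5% and 17.3% of all genes. Their median was -1.25 (-0.96 and -1.54 in the kits), and the block fit called 11 of them lower, beside 4.14% of all genes. Their summed signal was 1996 and 1408 in the CD11b+ arrays, against 3853 and 3950 in the CD11b- arrays. Epcam, the epithelial adhesion molecule, had 377 and 384 in the CD11b+ arrays, against 600.0 and 613 in the CD11b- arrays. All 13 passed the filter, and their part in the differences of the crypt genes and factors was not tested. By cell type, the median was -1.44 for 7 goblet cell genes, -0.99 for 6 Paneth cell genes and -0.49 for 8 enterocyte genes. Of these, 7, 4 and 2 genes were called lower by the block fit and 0 higher, beside 4.14% and 3.73% of all genes. The fractions did not overlap, with CD11b+ lower, for 7 goblet cell, 4 Paneth cell and 2 enterocyte genes, beside 17.3% of all genes. Summed goblet cell signal was 1509 and 739 in the CD11b+ arrays, against 3959 and 2213 in the CD11b- arrays. Summed Paneth cell signal was 1262 and 846 in the CD11b+ arrays, against 2076 and 1762 in the CD11b- arrays. Summed enterocyte signal was 1700.3 and 1224 in the CD11b+ arrays, against 1960 and 2284 in the CD11b- arrays.

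**Figure D5:**
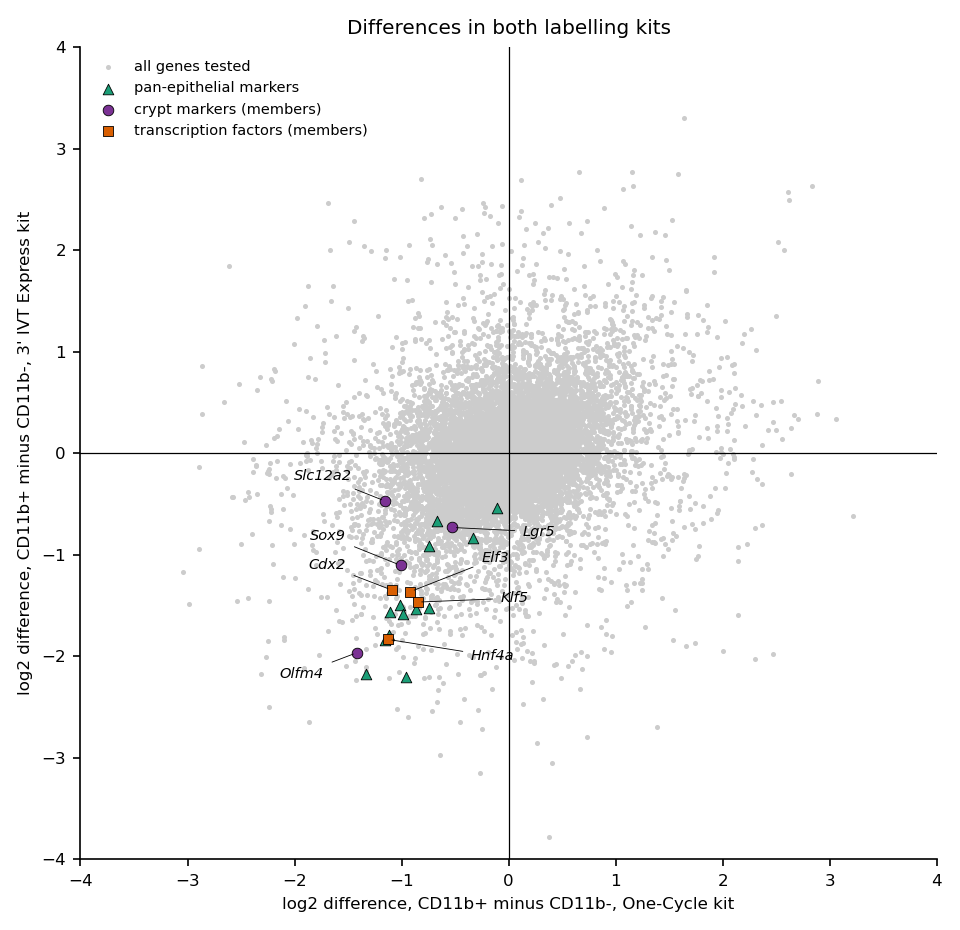
Log2 difference, CD11b+ minus CD11b-, in the One-Cycle kit (x axis) against the 3' IVT Express kit (y axis) for all 12645 genes tested (grey) and for crypt markers, transcription factors and pan-epithelial markers. The 8 genes above the filter all lie below 0 on both axes, as do the 13 pan-epithelial markers; Olfm4 lies at -1.41 and -1.97, Slc12a2 at -1.15 and -0.47, and Lgr5 at -0.53 and -0.73.

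The 5 genes tested whose profile over the 4 arrays lay nearest the mean profile of the 8 genes, by root mean square distance between centred log2 signals, were C130080G10Rik, Prss44, Syp, Zfp612 and Ugt2b34, at distances of 0.043, 0.055, 0.067, 0.067 and 0.070. Their log2 differences ran from -1.23 to -1.06, a range that the choice by profile fixed in advance. C130080G10Rik (7.89 and 3.99 in the CD11b+ arrays) and Syp (9.42 and 5.26) passed the filter through their CD11b- signals. The mean profile itself was -0.27 and -0.88 in the CD11b+ arrays, against 0.74 and 0.41 in the CD11b- arrays.

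Itgam, the CD11b gene, was higher in the fraction sorted for it, with 189 and 109 in the CD11b+ arrays, against 28.3 and 15.8 in the CD11b- arrays (log2 difference 2.59). The plasma cell genes Igha, Jchain, Xbp1 and Mzb1 were all bright, with signals from 8435 upwards. The median of 8 plasma cell genes was -0.08, with Sdc1, the surface proteoglycan CD138, at -0.61 (adjusted p = 8.98e-06 with the block in limma). Of the 8, 7 were lower and 0 higher in both kits, beside 30.5% and 31.6% of all genes. Cell division genes, which crypt cells also express, went the other way from the crypt markers. The median of 17 was 1.00 and 16 were higher in both kits, as were 31.6% of all genes, with Mki67 at 1.00. Mcm2 was at -1.06 in the One-Cycle kit and 0.57 in the other. Beta-actin control probe sets gave a 3′ over 5′ ratio, which rises with RNA degradation, of 1.43 and 1.61 in the CD11b+ arrays, against 1.90 and 1.84 in the CD11b- arrays. The same ratio for Gapdh was 0.682 and 0.710 in the CD11b+ arrays, against 0.685 and 0.704 in the CD11b- arrays, so the controls differed in whether they separated the fractions. The part of RNA quality in these differences was not tested.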

How the data were processed

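The authors deposited intensity values, 1 linear signal per probe set. The submitters' processing notes name MAS5 and Affymetrix Expression Console; their versions and the scaling target are not stated in the sources used here. The array holds 45101 probe sets, of which 64 controls were set aside and 34945 name 1 gene. Because the arrays were not on a common scale, signals were quantile-normalized, 3 was added (19.8% of signals lay at or below it) and log2 taken. Probe sets whose mean log2 value exceeded the 40th percentile were kept, with the brightest standing for its gene. This left 12645 genes for limma 3.58.1 (R 4.3.3, moderated with a variance trend, 2-sided, Benjamini-Hochberg adjustment over all genes, threshold 0.05), without a batch term. The script was tested on simulated data. A second fit blocks on the labelling kit, which the labels' protocols name. It has 1 residual degree of freedom for a gene, moderated by 25.6 prior degrees of freedom. Deviations from the fraction means correlated between same-kit arrays (r = 0.387 across genes, which are not independent replicates). With 2 arrays a fraction, exact permutation cannot reach 0.05 and was not used; the number of arrays limits the precision.

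The 10 genes and all lists were chosen with earlier results of these data known. Besides the 10, the rule named Itgam, Epcam, Igha, Sdc1, Mki67, up to 4 genes of each list by smallest p, and the 5 nearest profiles. Jchain, Xbp1, Mzb1, Mcm2, Grhl2, Axin2, Smoc2 and the factors below the filter were named after their values were seen. Lists are described by counts and medians and have no test of their own. Alternatives changed the pseudocount, scaling, filter, choice of probe set, variance model, block and arrays.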

Additional observations from a re-analysis of the deposited data

How the results depend on the processing

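The 8 genes kept a negative difference with signals as deposited, centring on the median, a common 2% trimmed mean and cyclic loess. These 4 are relative to the median of all genes, which shifted by 0.42, 0.23, -0.05 and -0.01. The mean of all probe sets and omission of cross-hybridising probe sets also left all 8 negative. Pseudocounts of 1 and 12 and each array left out could not reverse the sign, because the fractions did not overlap. No low-signal filter, no variance trend and the labelling kit as a replicate block left each difference itself unchanged. With a filter at the 70th percentile only 5 of the 8 genes were tested, and all 5 were lower in both kits. Choosing probe sets by the mean linear signal, added after seeing the data, gave the same median, -1.15, and keeping only the 7 genes with both fraction means above the filter, also added then, gave -1.16. The replicate block moved the count of calls from 0 to 996 genes and from 0 to 5 of the 8. Leaving out 1 array gave 0 to 24 calls over all genes, with 4 without CD11b-positive replicate 2 and 24 without CD11b-positive replicate 1, where Olfm4 and Hnf4a made 2 of the 8 (0 to 2); the lone array of a fraction is then assumed to vary like the other fraction. It gave medians of the 8 from -1.53 to -0.85, the ends being without CD11b-positive replicate 1 and without CD11b-positive replicate 2. Hnf4a was at -0.58 without cross-hybridising probe sets, and Lgr5 at -0.39 with a pseudocount of 12. No detection calls were used here, so weak signals have no stated background; 9 of the 23 probe sets lay below the filter, 5 of them with a mean difference above 0.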

Other observations

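Markers of macrophages, stroma and endothelium showed no common lower level in CD11b+ cells. Apart from IgA+ cells, other non-epithelial cell types were not examined. Of 10 macrophage markers, 7 were tested, with a median log2 difference of 0.51. In both kits 5 were higher and 2 lower, beside 31.6% and 30.5% of all genes. Their summed signal was 615 and 477 in the CD11b+ arrays, against 419 and 349 in the CD11b- arrays. Itgax, the CD11c chain, was called higher by limma blocked on the kit (98.9 and 126 in the CD11b+ arrays, against 59.4 and 61.7 in the CD11b- arrays, adjusted p = 0.0132). Of 10 stroma markers, 6 were tested, with a median of -0.03 and a summed signal of 187 and 195 in the CD11b+ arrays, against 163 and 215 in the CD11b- arrays. In both kits 2 stroma markers were lower and 1 higher, beside 30.5% and 31.6% of all genes. Of 6 endothelial markers, 4 were tested, with a median of -0.54 and a summed signal of 59.1 and 71.5 in the CD11b+ arrays, against 70.2 and 91.7 in the CD11b- arrays; 1 was higher and 0 lower in both kits.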
